A study of Mus musculus with 24 samples.

Results

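The transcripts of 8 genes were followed: Adam8, Adam9, Adam10, Adam15, Adam17 and Adam19, which encode transmembrane metalloproteases of the ADAM family, and Rhbdf1 and Rhbdf2, which encode the inactive rhomboid proteins iRhom1 and iRhom2. They were chosen by gene symbol, and each of the 8 names matched 1 of the 54532 genes counted. All 8 were among the 14261 genes that passed the filter on low counts. The RNA came from mouse C57BL/6 macrophages grown from bone marrow with CSF-1 and starved of serum overnight. There were 4 genotypes. Smad2fl cells carried homozygous floxed Smad2 alleles, and MyS2KO cells carried the same alleles together with LyzMCre, a Cre recombinase driven in myeloid cells. Smad3fl and MyS3KO cells were the corresponding pair for Smad3. Each genotype was left untreated or given TGF-β1 at 10 ng/ml for 4 h, which gave 8 groups of 3 libraries. The floxed groups carried no Cre, so the allele and the Cre cannot be told apart in a comparison of knockout with floxed cells. Whether a group's libraries came from separate mice is not stated, so p-values measure only the spread between libraries, which may be technical.

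ADAM proteases cut membrane proteins just outside the cell surface and release their ectodomains, a step called shedding. ADAM17, also known as TACE, is the main sheddase of TNF, of both TNF receptors and of several ligands of the EGF receptor in macrophages, and it leaves the endoplasmic reticulum only when bound to iRhom1 or iRhom2. ADAM10 depends in a similar way on tetraspanins of the TspanC8 group, cuts Notch receptors after ligand binding and sheds CXCL16 and the interleukin-6 receptor. The prodomains of both are removed by furin-type convertases, and some TIMP proteins, among them TIMP3, inhibit the mature enzymes. TGF-β1 signals through phosphorylated SMAD2 and SMAD3, which enter the nucleus with SMAD4.

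Libraries held 16868501 to 24918582 counted reads. The targeted genes were examined first, since they check the labels. Smad2 stood at 37.1 to 42.5 CPM (reads scaled to a common library size) in untreated libraries labelled MyS2KO and at 39.6 to 45.4 CPM in untreated Smad2fl libraries (log2 difference -0.06 ± 0.12 SE, adjusted p = 0.92), so its total RNA did not separate the groups, and the term "libraries labelled MyS2KO" is meant wherever MyS2KO is written. Smad3 was lowered but not lost in untreated MyS3KO, at 209, 181 and 161 CPM against 443, 460 and 369 CPM in untreated Smad3fl (-1.21 ± 0.14 log2 units). Under TGF-β1 the difference was smaller, at 289, 250 and 265 CPM against 404, 442 and 400 CPM (-0.63 ± 0.13). Smad3 itself rose with TGF-β1 in MyS3KO (0.54 ± 0.13, adjusted p = 0.0093, edgeR). In the other line Smad3 was far lower, at 38.0 to 45.8 CPM in untreated Smad2fl and 26.4 to 34.0 CPM in untreated MyS2KO, so untreated MyS3KO libraries still held more Smad3 RNA than Smad2fl libraries. Which exons are deleted is not given in the sources used here. Smad7, an induced target of TGF-β1 signalling, rose in all 4 genotypes, by 4.47 to 6.25 log2 units. All 10 macrophage markers were detected, with Adgre1 at 8281 CPM or more, while Cd3e and Mcpt8 had no read. The summed CPM of the other marker lists ran from 14.4 to 40.6 for dendritic cells, 1.01 to 23.0 for neutrophils, 0.352 to 4.08 for lymphocytes, 0.0987 to 3.30 for stromal cells, 65.0 to 187 for osteoclasts, 0 to 0.364 for mast cells and basophils, and 69.2 to 264 for erythroid cells and megakaryocytes, where Pf4 made up most of the sum. Untreated Smad3fl library 3 differed most from the others of its group, and Smad3fl libraries held a smaller share of ribosomal protein reads (0.872 to 1.46%) than all other libraries (1.58 to 2.40%), so named genes compared through Smad3fl are also given without both libraries numbered 3 where that changes their call. In bulk RNA, fewer expressing cells and less RNA per cell cannot be told apart.

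All 8 members are annotated as protein-coding genes. On GRCm38 they lie at chr7:139978932-139992562 (Adam8, ENSMUSG00000025473), chr8:24949611-25016927 (Adam9, ENSMUSG00000031555), chr9:70678997-70780229 (Adam10, ENSMUSG00000054693) and chr3:89338542-89349996 (Adam15, ENSMUSG00000028041). The others lie at chr12:21323509-21373632 (Adam17, ENSMUSG00000052593), chr11:46055992-46147343 (Adam19, ENSMUSG00000011256), chr11:32209585-32222300 (Rhbdf1, ENSMUSG00000020282) and chr11:116598165-116627019 (Rhbdf2, ENSMUSG00000020806). Per unit of transcript length these genes covered a wide range. On the authors' FPKM scale, which scales fragments by transcript length and library depth, the median level over the 24 libraries was 301 for Adam8, 153 for Adam17, 146 for Adam9, 72.8 for Rhbdf2, 60.5 for Adam15 and 52.0 for Adam10. Adam19 had a median of 1.64 FPKM and Rhbdf1 a median of 0.367 FPKM. Rhbdf1 was counted with 0 to 25 reads per library, while Rhbdf2 was at 137 or more CPM in every library, so Rhbdf2 carried nearly all iRhom reads in these cells. Adam8, a sheddase of leukocytes, had the highest FPKM of the 8. Which gene lengths the authors divided by is not stated. Those implied by counts and FPKM, 1589 to 2688 bases, are shorter than the listed lengths of 4115 to 7154 bases, and with the listed lengths Adam9 would stand above Adam17 and Adam10 above Adam15. Adam19 was counted with 3 to 443 reads per library.

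The start regions of 5 members are shown, since these are the 5 of the 8 members with an entry in the table used. Adam9, whose RNA also differed in a Smad3 comparison, had no entry, nor did Rhbdf1 and Rhbdf2. Each region is the 250 bases before the start site in RefSeq on build GRCm38.p6, written 5′ to 3′ in lower case. Capitals mark matches, on either strand, to the SMAD-binding core CAGAC, to the GC-rich SMAD motif GGCGCC, or to the AP-1 motif TGANTCA.
Adam8, chr7:139992563-139992812, minus strand: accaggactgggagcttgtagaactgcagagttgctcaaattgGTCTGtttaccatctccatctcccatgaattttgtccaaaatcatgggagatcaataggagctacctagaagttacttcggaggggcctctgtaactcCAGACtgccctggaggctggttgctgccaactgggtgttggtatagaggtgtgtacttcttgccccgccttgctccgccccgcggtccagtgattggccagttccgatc
Adam10, chr9:70678732-70678981, plus strand: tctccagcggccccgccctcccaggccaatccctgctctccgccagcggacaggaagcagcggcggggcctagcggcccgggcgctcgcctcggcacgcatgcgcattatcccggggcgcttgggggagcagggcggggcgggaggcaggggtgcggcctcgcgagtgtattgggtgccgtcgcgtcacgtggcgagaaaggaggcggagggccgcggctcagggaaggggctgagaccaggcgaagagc
Adam15, chr3:89350029-89350278, minus strand: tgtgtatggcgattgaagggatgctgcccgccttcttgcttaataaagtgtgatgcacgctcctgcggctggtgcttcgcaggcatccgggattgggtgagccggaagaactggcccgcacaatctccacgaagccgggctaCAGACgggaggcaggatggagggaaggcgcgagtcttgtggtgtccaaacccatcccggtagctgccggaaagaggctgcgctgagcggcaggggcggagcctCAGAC
Adam17, chr12:21373633-21373882, minus strand: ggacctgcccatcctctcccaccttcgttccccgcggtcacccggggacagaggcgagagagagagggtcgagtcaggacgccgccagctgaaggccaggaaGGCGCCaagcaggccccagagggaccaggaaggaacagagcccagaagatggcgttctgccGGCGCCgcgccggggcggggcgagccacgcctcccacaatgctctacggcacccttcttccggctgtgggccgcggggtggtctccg
Adam19, chr11:46055734-46055983, plus strand: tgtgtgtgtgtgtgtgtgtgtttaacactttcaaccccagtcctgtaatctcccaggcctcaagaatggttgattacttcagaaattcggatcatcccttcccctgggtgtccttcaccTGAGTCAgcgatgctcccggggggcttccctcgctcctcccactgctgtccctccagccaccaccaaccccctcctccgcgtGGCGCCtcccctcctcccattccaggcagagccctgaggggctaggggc
The palindrome GTCTAGAC, in which a pair of SMAD sites lie head to head, was also searched, and none of the 4 motifs lies inside another. Windows of 300 bases, from 250 before to 50 after the start site, were scanned for all 32851 promoters of the table. GTCTAGAC occurred in 0.213% of them, CAGAC in 49.6%, GGCGCC in 11.9% and TGANTCA in 7.81%. The Adam8 window held CAGAC at -207 and -109, Adam15 held it at -108, -5 and 18, Adam17 held GGCGCC at -148 and -87, and Adam19, from the start site nearest to the one in the count table, held TGANTCA at -131, GGCGCC at -49 and CAGAC at 6. The Adam10 window held none of these letters. A match is a description of the sequence and not evidence of binding.

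**Figure D1:**
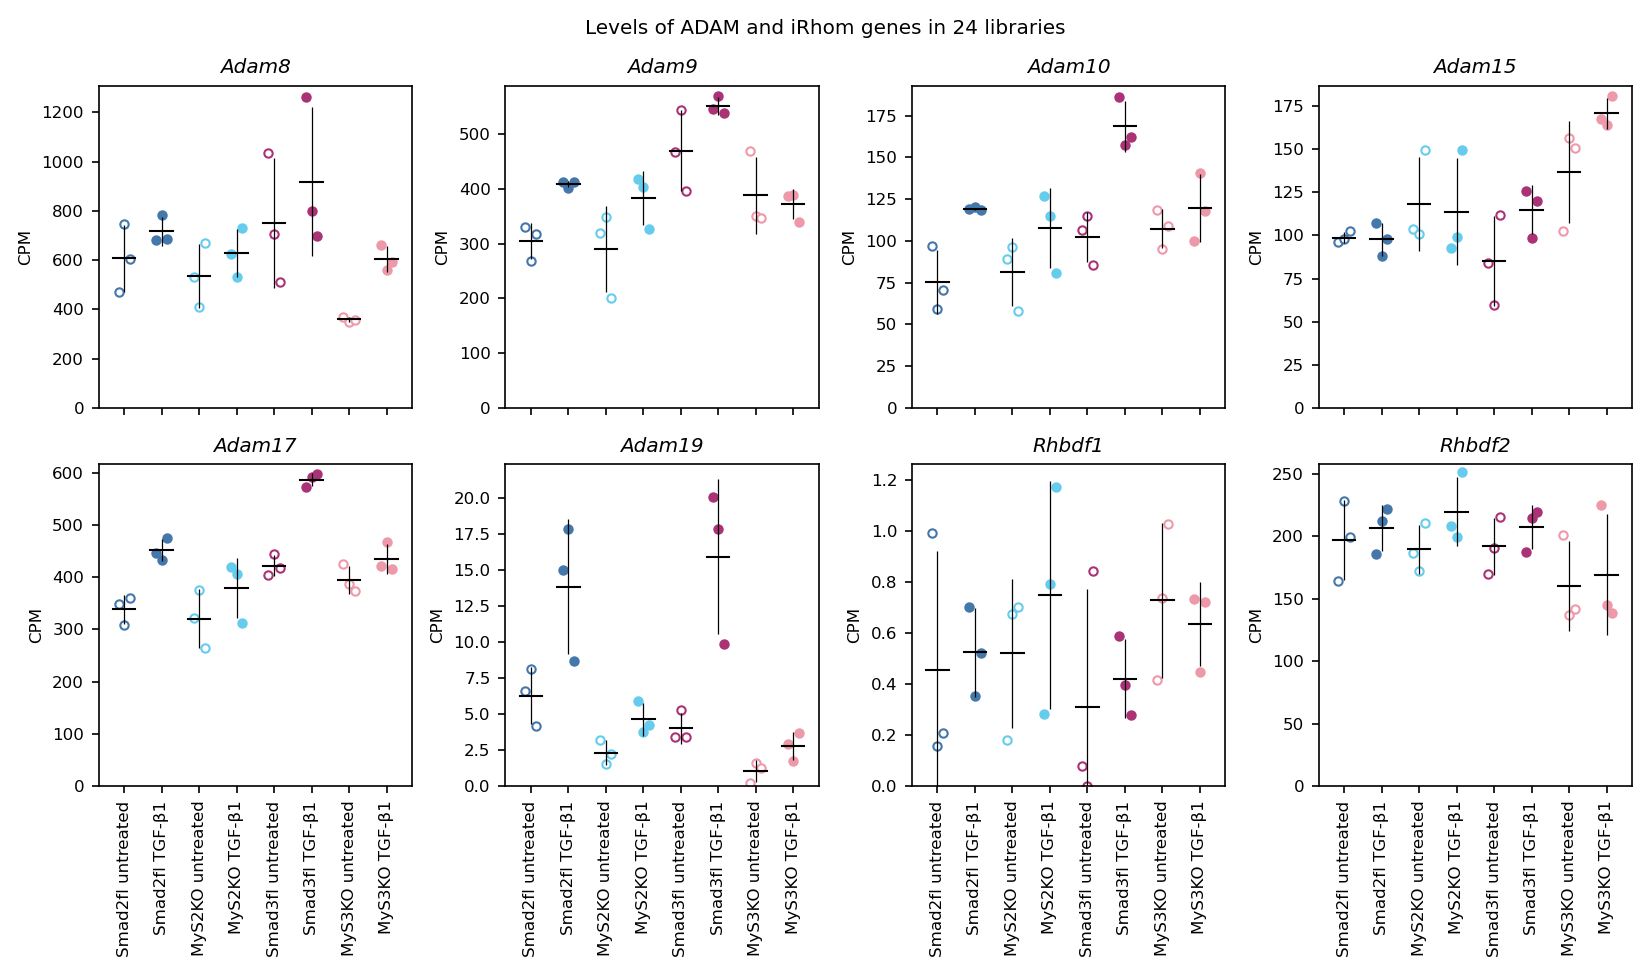
Level of each member in every library, in CPM on scaled library totals (vertical axes, each starting at 0), for the 8 groups. Points are libraries (open, untreated; filled, TGF-β1), horizontal bars are group means and vertical bars are SD over 3 libraries, cut off at 0. Adam19 is lowest in untreated MyS3KO (1.02 CPM) and highest in TGF-β1-treated Smad3fl (15.9 CPM).

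The first question was how TGF-β1 changed these transcripts in each genotype. Adam10 and Adam17 rose modestly in both floxed genotypes, Adam19 rose about 4-fold in Smad3fl, and Adam8 rose in MyS3KO. No member passed the threshold for a fall. A call here is an adjusted p under 0.05 in edgeR's quasi-likelihood test, with Benjamini-Hochberg adjustment over all tested genes. Overlap of libraries, or its absence, is only a description, since the share of all genes without overlap is not given here. In Smad2fl 2 of 8 members rose, where 11.1% of all tested genes were called in either direction. In MyS2KO 0 of 8 were called, against 3.41% of all genes. At an unadjusted p under 0.05 there were 2 in MyS2KO (Adam9 and Adam19), and DESeq2 and limma called 0. In Smad3fl 3 of 8 rose against a background of 12%, and in MyS3KO 1 of 8 rose against 10%. The median log2 change of the 8 members was 0.33 in Smad2fl, 0.32 in MyS2KO, 0.45 in Smad3fl and 0.15 in MyS3KO, where the median over all tested genes lay between -0.03 and 0.01.

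Adam17, the TNF sheddase, stood at 348, 307 and 361 CPM in untreated Smad2fl libraries and at 446, 433 and 475 CPM after TGF-β1. The treated and untreated groups did not overlap, and the change was 0.41 ± 0.13 log2 units (SE, adjusted p = 0.039, edgeR), a 1.33-fold rise. In Smad3fl the level went from 404, 445 and 417 CPM to 572, 591 and 597 CPM, again without overlap (0.48 ± 0.13, adjusted p = 0.016, edgeR). In MyS2KO it was 321, 376 and 264 CPM untreated and 419, 406 and 313 CPM treated, and in MyS3KO it was 425, 386 and 374 CPM untreated and 421, 467 and 415 CPM treated. The treated and untreated ranges overlapped in both, and neither difference passed the test (0.24 ± 0.13 and 0.14 ± 0.13). In MyS2KO the treated library was above the untreated one of the same number in 3 of 3 pairs, and the fit with the replicate block also missed the threshold (adjusted p = 0.097, edgeR). Treated Smad3fl libraries were the highest of all 8 groups for this gene and did not overlap with the next group down, treated Smad2fl, while all other neighbours in the order of means overlapped. The call in Smad2fl was near the threshold: it was lost without any 1 of the 6 Smad2fl libraries and without 11 of the 18 others (adjusted p 0.064 to 0.21 where lost). In Smad3fl it was lost without untreated library 1 or 3 or treated library 2 or 3 (0.43 to 0.46 log2 units, adjusted p 0.052 to 0.064, edgeR) and without both Smad3fl libraries numbered 3 (0.44, adjusted p = 0.12, edgeR). With no filter on low counts neither Adam17 rise was called (adjusted p = 0.19 in Smad2fl and 0.079 in Smad3fl, edgeR).

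Adam10, the Notch and CXCL16 sheddase, was called in the same genotypes as Adam17. Its levels in Smad2fl were 96.8, 59.2 and 70.8 CPM untreated and 119, 120 and 119 CPM treated, and the treated libraries lay close together above all untreated ones (0.66 ± 0.20 log2 units, adjusted p = 0.033, edgeR). In Smad3fl it went from 107, 115 and 85.8 CPM to 186, 158 and 162 CPM without overlap (0.72 ± 0.20, adjusted p = 0.017, edgeR). In MyS2KO the values were 89.5, 96.4 and 58.3 CPM before and 127, 115 and 81.0 CPM after TGF-β1, and in MyS3KO they were 118, 95.1 and 109 CPM before and 99.9, 140 and 118 CPM after. Those ranges overlapped and the differences, 0.40 ± 0.20 and 0.15 ± 0.20, did not pass the test. In MyS2KO it was higher after TGF-β1 in 3 of 3 same-numbered pairs, with an adjusted p of 0.11 under the replicate block (edgeR). Treated Smad3fl was again the highest group and stood clear of the next, treated MyS3KO. The Smad2fl call was lost without 13 of the 24 libraries in turn, 5 of them Smad2fl libraries (0.51 to 0.63 log2 units, adjusted p 0.050 to 0.19, edgeR). The Smad3fl call was lost without untreated library 3 or treated library 1 (0.60 to 0.65, adjusted p 0.087 to 0.11, edgeR) and without both libraries numbered 3 (0.62, adjusted p = 0.16, edgeR).

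Adam19, a sheddase best known for neuregulin processing and heart valve development, had the widest relative range among the members other than Rhbdf1. Its levels were 6.61, 8.11 and 4.15 CPM in untreated Smad2fl and 15.0, 17.8 and 8.67 CPM after TGF-β1. In Smad3fl it went from 3.39, 5.27 and 3.38 CPM to 20.1, 17.9 and 9.85 CPM. In MyS2KO it went from 3.21, 1.53 and 2.21 CPM to 5.92, 3.77 and 4.21 CPM, and in MyS3KO from 0.179, 1.63 and 1.26 CPM to 2.94, 1.74 and 3.66 CPM. In each of the 4 genotypes every treated library was above every untreated one. The rise passed the test in Smad3fl (1.99 ± 0.41 log2 units, 3.97-fold, adjusted p = 0.0018, edgeR), where it was also called without any 1 of the 24 libraries and without both Smad3fl libraries numbered 3. It missed the threshold in Smad2fl (1.14 ± 0.40, adjusted p = 0.074, edgeR), MyS2KO (1.01 ± 0.44, adjusted p = 0.34, edgeR) and MyS3KO (1.40 ± 0.48, adjusted p = 0.068, edgeR). With no filter on low counts it was called in all 4 genotypes, with adjusted p of 0.000717, 0.0231 and 0.000477 in the last 3, and DESeq2 called it in Smad2fl and MyS3KO as well. The lowest library, untreated MyS3KO 1, rested on 3 reads.

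Adam8 was high in every group and varied most in Smad3fl, where untreated libraries stood at 1033, 704 and 511 CPM and treated ones at 1261, 799 and 696 CPM. In MyS3KO the 3 untreated libraries lay close together at 369, 350 and 359 CPM and the treated ones at 662, 558 and 594 CPM, with no overlap (0.75 ± 0.24 log2 units, adjusted p = 0.044, edgeR). This call was lost without any 1 of the 6 MyS3KO libraries and without 11 of the 18 others (0.68 to 0.77, adjusted p 0.050 to 0.13, edgeR). In Smad2fl the levels were 472, 746 and 603 CPM untreated and 680, 783 and 686 CPM treated, and in MyS2KO 532, 410 and 668 CPM untreated and 626, 532 and 729 CPM treated, and both pairs of ranges overlapped. In Smad3fl the treated library was above the untreated one of the same number in 3 of 3 pairs, and same-numbered libraries deviated together over all genes. Fitted with the replicate number as a block, Adam8 passed the test in Smad3fl (0.31 log2 units, adjusted p = 0.027, edgeR), as did Adam15 (0.47, adjusted p = 0.012, edgeR), which gave 5 members in place of 3. The block also raised the calls over all 14261 tested genes in Smad3fl, from 1714 to 3306.

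Adam9 and Adam15, a pair of widely expressed ADAMs, were not called in any of the 4 responses without that block. Adam9 went from 330, 268 and 317 CPM to 412, 402 and 412 CPM in Smad2fl, without overlap (0.42 ± 0.17, adjusted p = 0.12, edgeR). In MyS2KO, whose same-numbered libraries also deviated together, it went from 319, 349 and 201 CPM to 418, 403 and 327 CPM and was called under the block (0.43, adjusted p = 0.021, edgeR), 1 member in place of 0. Over all tested genes the block gave 1032 calls in MyS2KO in place of 486. In Smad3fl Adam9 was at 467, 544 and 396 CPM before and 545, 569 and 539 CPM after, and in MyS3KO at 468, 350 and 346 CPM before and 387, 389 and 340 CPM after, with overlap in both. Adam15 was at 96.2, 97.8 and 102 CPM before and 107, 88.1 and 97.8 CPM after TGF-β1 in Smad2fl, and in Smad3fl at 84.0, 59.8 and 112 CPM before and 126, 98.7 and 120 CPM after, with overlap in both. In MyS2KO it was 104, 101 and 149 CPM before and 92.8, 99.1 and 149 CPM after, and in MyS3KO all treated libraries (164 to 181 CPM) were above all untreated ones (103 to 157 CPM) without a call (0.32 ± 0.21, adjusted p = 0.41, edgeR).

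The iRhoms did not pass the test in any response. Rhbdf2, the iRhom of immune cells, lay between 137 and 251 CPM in all 24 libraries, and its log2 changes with TGF-β1 ran from 0.07 to 0.21 with an SE of 0.18 each. All 8 of its group ranges overlapped with those of their neighbours in the order of means. Rhbdf1 was at or below 1.17 CPM everywhere, and its fitted changes had SEs of 0.80 to 0.87 log2 units. No change of Rhbdf1 with TGF-β1 could be resolved at this depth.

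**Figure D2:**
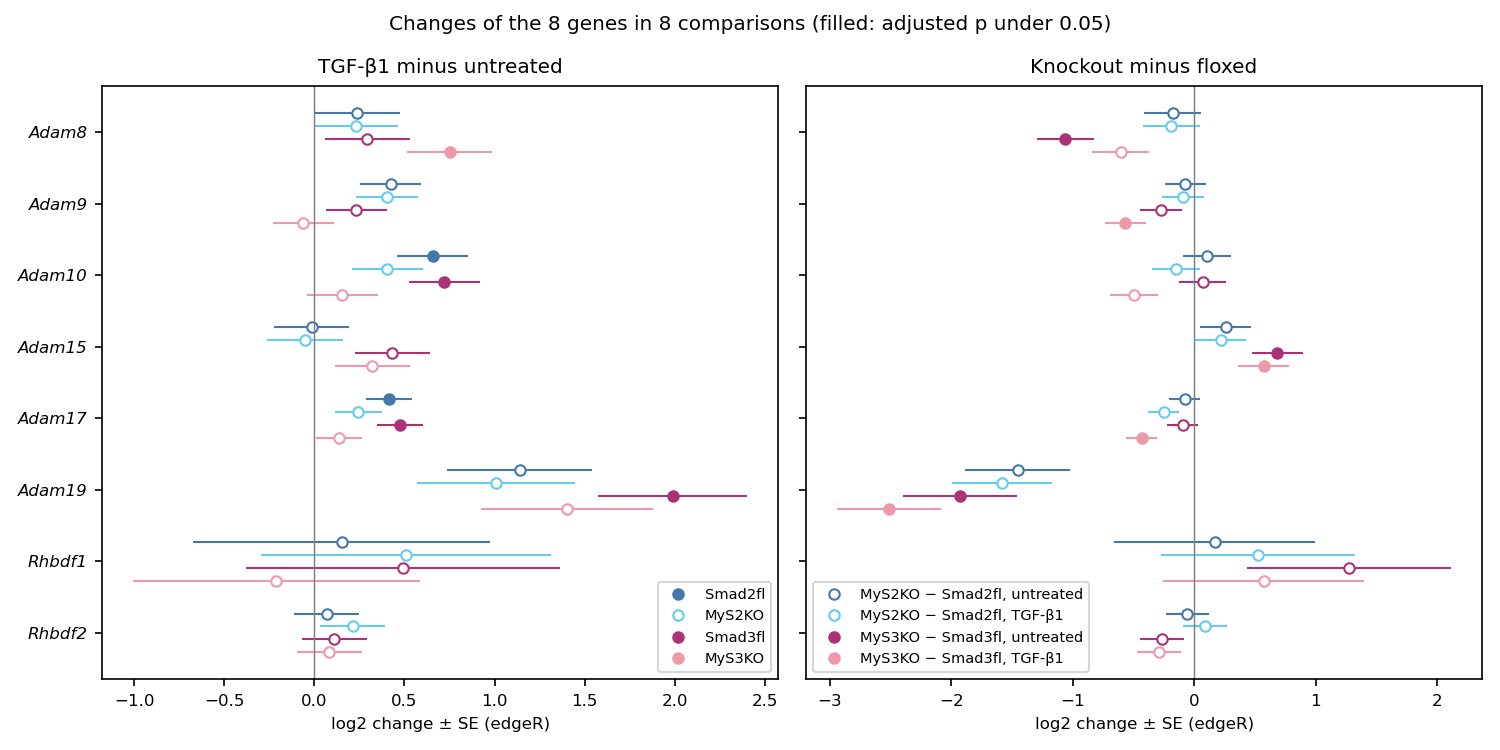
Log2 change of each member (horizontal axis, edgeR estimate with SE) with TGF-β1 in the 4 genotypes (left) and between knockout and floxed cells in the 4 matched comparisons (right). Filled points have an adjusted p under 0.05. Adam19 lies furthest from 0 on both sides, up to 1.99 with TGF-β1 and down to -2.51 in MyS3KO minus Smad3fl with TGF-β1.

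The next comparison was of knockout with floxed cells of the same line and treatment. In the Smad3 line Adam8 and Adam19 were lower in MyS3KO without treatment, Adam9, Adam17 and Adam19 were lower under TGF-β1, and Adam15 was higher in both conditions. In the Smad2 line no member was called. For untreated cells of the Smad3 line 3 of 8 members were called, 1 higher and 2 lower, where 17.7% of all tested genes were called. Under TGF-β1 it was 4 of 8, 1 higher and 3 lower, against 28.2%. The median log2 difference of the members was -0.18 untreated and -0.47 under TGF-β1, and that of all tested genes was -0.03 and 0.01. For the Smad2 line 0 of 8 were called against 0.0701% untreated and 0 of 8 against 0.421% under TGF-β1 (edgeR). In each of them 1 member, Adam19, had an unadjusted p under 0.05. DESeq2 called 0 untreated and 1 (Adam19) under TGF-β1, and limma called 0 in both.

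Adam19 was lower in knockout than in floxed cells in all 4 comparisons, with no overlap of the ranges in any of them. The difference was -1.93 ± 0.47 log2 units in untreated Smad3-line cells (adjusted p = 0.0069, edgeR), with group means of 1.02 ± 0.75 CPM (SD, n = 3 libraries) in MyS3KO and 4.02 ± 1.09 CPM in Smad3fl. Under TGF-β1 it was -2.51 ± 0.43 (adjusted p = 0.00036, edgeR), with 2.78 ± 0.97 CPM against 15.9 ± 5.38 CPM. Both calls held without any 1 of the 24 libraries. In the Smad2 line the estimates were -1.45 ± 0.43 (adjusted p = 0.28, edgeR) and -1.58 ± 0.41 (adjusted p = 0.10, edgeR), from 2.32 ± 0.85 against 6.29 ± 2.00 CPM and from 4.63 ± 1.14 against 13.8 ± 4.70 CPM. These did not pass the threshold in the fit over all libraries. With no filter on low counts they did (adjusted p = 0.000187 and 5.398e-06), and with the Smad2 line fitted alone the second did (adjusted p = 0.034).

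Adam8 was lower in untreated MyS3KO than in untreated Smad3fl by 1.06 ± 0.24 on the log2 scale (359 ± 9.72 against 749 ± 264 CPM, adjusted p = 0.0037, edgeR). No library of one group reached the other, and the call held without any 1 of the 24 libraries, with an estimate between -1.26 and -0.75. Under TGF-β1 the groups, 605 ± 52.6 and 919 ± 301 CPM, also did not overlap, but the difference of -0.60 ± 0.23 missed the threshold (adjusted p = 0.058, edgeR). It passed without the Smad3fl libraries numbered 3 (-0.77, adjusted p = 0.013, edgeR) and in DESeq2 (adjusted p = 0.034). ADAM8 is abundant in neutrophils. Summed over 8 neutrophil markers, levels lay at 13.8 to 23.0 CPM in untreated MyS3KO and 2.77 to 19.1 CPM in untreated Smad3fl, and Ly6g was at or below 0.239 CPM in all libraries. Their part in the Adam8 difference was not tested.

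Under TGF-β1 Adam17 was lower in MyS3KO by 0.43 ± 0.13 on the log2 scale (434 ± 28.6 against 586 ± 13.1 CPM, adjusted p = 0.017, edgeR). Adam9 was lower by 0.57 ± 0.17 (372 ± 27.4 against 551 ± 15.9 CPM, adjusted p = 0.018, edgeR). Neither gene's ranges overlapped. Without treatment neither differed beyond the test, at -0.10 ± 0.13 and -0.27 ± 0.17. The Adam17 call was lost without treated Smad3fl library 2 or treated MyS3KO library 1 or 3 (-0.43 to -0.40, adjusted p 0.054 to 0.069, edgeR), and the Adam9 call without treated Smad3fl library 1 or 2 or treated MyS3KO library 3 (-0.55 to -0.51, adjusted p 0.051 to 0.076, edgeR). With no filter on low counts the Adam17 difference also missed the threshold (-0.44, adjusted p = 0.063, edgeR). Adam10 was at 120 ± 20.3 CPM in MyS3KO and 169 ± 15.4 CPM in Smad3fl under TGF-β1, a difference of -0.50 ± 0.20 that missed the threshold (adjusted p = 0.062, edgeR).

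Adam15 went the other way. It was higher in untreated MyS3KO (103, 157 and 151 CPM) than in untreated Smad3fl (84.0, 59.8 and 112 CPM) by 0.68 ± 0.21 log2 units (adjusted p = 0.027, edgeR), with 1 pair of libraries overlapping. Under TGF-β1 the MyS3KO libraries stood at 167, 164 and 181 CPM, above the 126, 98.7 and 120 CPM of Smad3fl (0.57 ± 0.21, adjusted p = 0.046, edgeR). The untreated call was lost without untreated Smad3fl library 1 or 2 or untreated MyS3KO library 2 or 3 (0.49 to 0.68, adjusted p 0.078 to 0.16, edgeR). The treated call was lost without 12 of the 24 libraries in turn, among them all 6 libraries compared (0.47 to 0.66, adjusted p 0.050 to 0.18, edgeR) and in limma on the FPKM values (0.46, adjusted p = 0.11). With the Smad3 line fitted alone both missed the threshold (adjusted p = 0.053 and 0.066, edgeR). An antisense transcript overlaps Adam15 over 9290 bases but held at most 0.470 CPM. With DESeq2 size factors the treated Adam15 call was lost too (adjusted p = 0.052, edgeR).

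Rhbdf2 was not called in either condition, at -0.26 ± 0.18 and -0.29 ± 0.18. Rhbdf1 was at 0.417, 0.740 and 1.03 CPM in untreated MyS3KO and at 0.0798, 0 and 0.846 CPM in untreated Smad3fl, and it was not called (1.27 ± 0.84 log2 units, adjusted p = 0.32, edgeR). Without the Smad3fl libraries numbered 3, which leaves 2 Smad3fl libraries with almost no Rhbdf1 reads, it was called higher in MyS3KO (adjusted p = 0.0098, edgeR), for 4 members in place of 3, and lower in Smad3fl than in Smad2fl (adjusted p = 0.019, edgeR).

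Whether the response to TGF-β1 itself differed between knockout and floxed cells was tested as an interaction. In edgeR 0 of 8 members were called in the Smad2 line, where 0.00701% of all genes were, and 0 of 8 in the Smad3 line, where 0.021% were. No member had an unadjusted p under 0.05 in either, and DESeq2 and limma called 0. The estimates nearest to the threshold were in the Smad3 line: -0.57 ± 0.28 for Adam10 and -0.34 ± 0.18 for Adam17 (adjusted p = 0.73 for both, edgeR). The response of Adam19 was smaller in MyS3KO than in Smad3fl by 0.59 ± 0.63 log2 units (interaction -0.59), well within its error. The calls of Adam10, Adam17 and Adam19 in Smad3fl but not in MyS3KO therefore do not show that their responses differed. Likewise, Adam8 was called in MyS3KO but not in Smad3fl, with an interaction of 0.46 ± 0.33 that was not called. Adam10 and Adam17 were called in Smad2fl but not in MyS2KO, with uncalled interactions of -0.25 ± 0.28 and -0.17 ± 0.18. Those calls do not show different responses either.

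The floxed lines differed before any treatment. Adam9 was higher in untreated Smad3fl than in untreated Smad2fl by 0.62 ± 0.17 log2 units (469 ± 73.8 against 305 ± 32.7 CPM, adjusted p = 0.0084, edgeR), without overlap. It was the 1 of 8 members called, against 33.4% of all tested genes. The call was lost without untreated Smad2fl library 2 or untreated Smad3fl library 2 (0.49 to 0.53, adjusted p 0.052 to 0.071, edgeR). The TGF-β1 responses of the floxed lines were compared directly, and 0 of 8 members differed against 0% of all genes (edgeR). No member had an unadjusted p under 0.05 there, and DESeq2 and limma called 0. For Adam19 the difference of the responses was 0.85 ± 0.57 log2 units.

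Part of the spread within groups followed base composition. For each library the GC trend was taken as the correlation, over genes, of a gene's deviation from its group mean with the GC share of its transcript, and it ran from -0.40 to 0.51. Over the 24 libraries the deviations of Adam9, Adam10 and Adam17, with transcripts of 46.6, 42.1 and 45.1% GC, correlated with this trend at r = -0.91, -0.90 and -0.86 (Spearman's rho -0.92, -0.85 and -0.83). Adam15, with 59.7% GC, correlated at 0.82 (rho 0.81). Without the 2 libraries farthest from the median trend these r values were -0.89, -0.84, -0.79 and 0.75. For Adam8, Adam19, Rhbdf1 and Rhbdf2 r lay between 0.29 and 0.38. These are descriptions with no test, since the libraries of a group share a mean and the trend is computed from the same reads. With a GC trend removed from every library, an alternative chosen after seeing the data that also removes any such trend between groups, Adam17 was no longer called in Smad2fl (0.26 log2 units, adjusted p = 0.074, edgeR) or between MyS3KO and Smad3fl under TGF-β1 (-0.24, adjusted p = 0.064, edgeR). Adam10 was still called in both floxed responses, at 0.45 and 0.53, but its difference between MyS3KO and Smad3fl under TGF-β1 shrank from -0.50 to -0.06. Adam8 was no longer called in MyS3KO (0.58, adjusted p = 0.096, edgeR), while Adam8 between MyS3KO and Smad3fl under TGF-β1 (-0.79), Adam19 in Smad2fl (1.12), Adam15 in Smad3fl (0.42) and Adam10 in MyS3KO (0.34) passed the threshold (adjusted p = 0.011, 0.049, 0.047 and 0.049, edgeR). Adam19 kept its 3 calls.

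**Figure D3:**
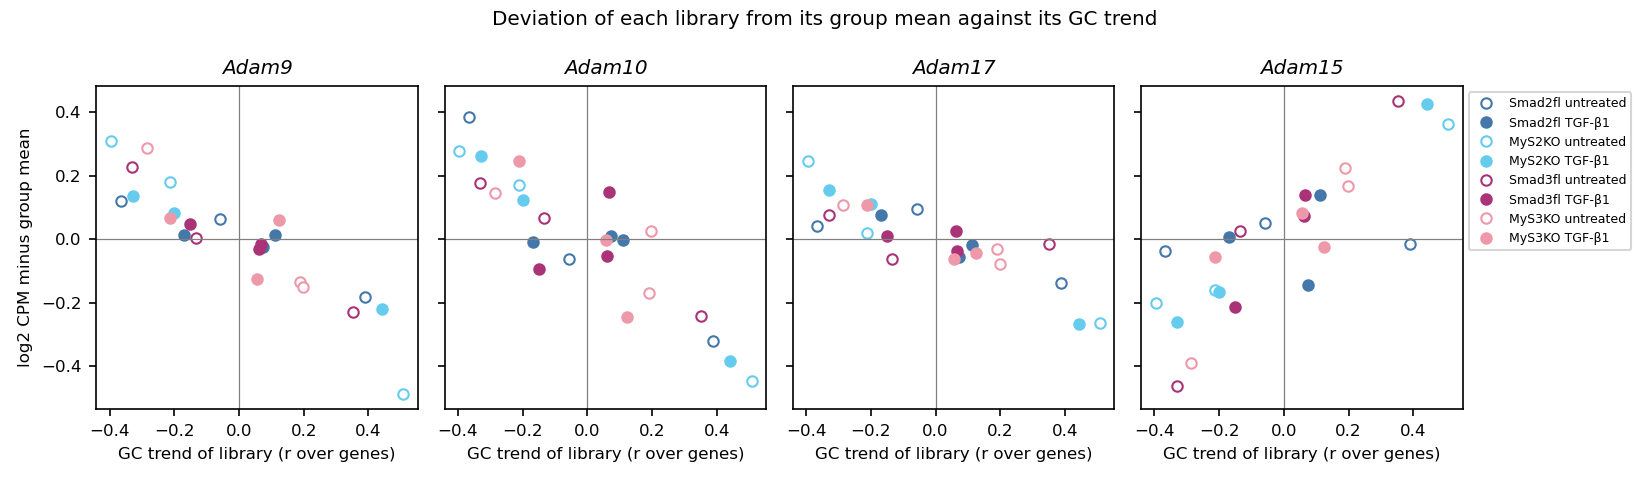
Deviation of each library from its group mean in log2 CPM (vertical axis) against the library's GC trend (horizontal axis, r over genes) for 4 members. Points are the 24 libraries, coloured by genotype (open, untreated; filled, TGF-β1). Adam9, Adam10 and Adam17 fall along the axis (r = -0.91, -0.90 and -0.86) and Adam15 rises (r = 0.82).

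Across the 24 libraries Adam9, Adam10 and Adam17 moved together. The log2 levels of Adam10 and Adam17 correlated at r = 0.91, those of Adam9 and Adam17 at 0.90 and those of Adam9 and Adam10 at 0.86, and with the group means taken out at 0.77, 0.84 and 0.80. Adam8 and Adam19 correlated at 0.73 over the libraries but at 0.22 within groups. Adam15 and the sparse Rhbdf1 correlated at 0.67 over the libraries and 0.68 within groups. Adam8 and Adam17 correlated at 0.32, and Rhbdf2 with Adam17 at -0.0002. The points share groups, depth and base composition, so the values are descriptions with no test. Among 11146 genes with a mean of at least 1 CPM, the genes whose levels were most like those of each member were also found by Pearson's r. They were Papola (0.97) and Dst (0.97) for Adam9, Zfp148 (0.96) for Adam10, and Tnpo1 (0.94) and Tpp2 (0.94) for Adam17. For Adam8 they were Fosl2 (0.91) and Sdc1 (0.90), for Adam19 Prune2 (0.87) and Ap1b1 (0.83), and for Adam15 Ppfia4 (0.86) and Ass1 (0.85). For Rhbdf2 they were Pgs1 (0.90) and Socs3 (0.88), and for Rhbdf1 Klhl26 (0.75) and Slc46a1 (0.74).

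The proteins that mature or carry ADAMs, and inhibitors of metalloproteases, were covered by a list of 18 genes, of which 10 could be tested. Furin, the convertase that removes the prodomain of ADAM10 and ADAM17, rose with TGF-β1 in all 4 genotypes, and so did Tspan14, a TspanC8 tetraspanin that escorts ADAM10. Furin went from 77.1, 102 and 89.4 CPM to 251, 268 and 264 CPM in Smad2fl, from 86.6, 93.6 and 115 to 216, 207 and 270 CPM in MyS2KO, from 51.5, 72.8 and 53.8 to 183, 228 and 167 CPM in Smad3fl and from 77.8, 82.5 and 84.8 to 307, 265 and 283 CPM in MyS3KO. In no genotype did treated and untreated libraries overlap, and the log2 rises were 1.54, 1.23, 1.70 and 1.80 with an SE of 0.15 to 0.16 (adjusted p at most 1.3e-05, edgeR). Tspan14 rose by 0.95 ± 0.13 in Smad2fl, 0.64 ± 0.13 in MyS2KO, 0.65 ± 0.13 in Smad3fl and 1.01 ± 0.13 in MyS3KO. Pcsk7, another convertase, fell by 0.52 in Smad2fl and by 0.59 in Smad3fl, the latter a call lost without the Smad3fl libraries numbered 3 (-0.50, adjusted p = 0.11, edgeR) and with the line alone (adjusted p = 0.055). Dlg1, which encodes a scaffold that binds ADAM10, fell by 0.51 in MyS3KO. Of the 10 tested genes, Furin and Tspan14 were thus the 2 that rose in each genotype. The list median was -0.14 in Smad2fl, -0.01 in MyS2KO, -0.10 in Smad3fl and 0.18 in MyS3KO.

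In the Smad3 line the same list had 4 genes higher and 0 lower in untreated MyS3KO, and 7 higher and 1 lower under TGF-β1, with medians of 0.30 and 0.55, where 17.7% and 28.2% of all tested genes were called. With an offset for GC content in the edgeR fit, chosen after seeing the data, the treated counts were 4 and 0, and Furin, Pcsk7, Tspan14 and Dlg1 were among those no longer called. Timp2 encodes an inhibitor of metalloproteases, and whether it acts on ADAM10 or ADAM17 in these cells was not tested. Timp2 stood at 89.6, 168 and 175 CPM in untreated MyS3KO and at 49.2, 33.8 and 81.6 CPM in untreated Smad3fl (1.40 ± 0.28 log2 units, adjusted p = 0.0014, edgeR). Under TGF-β1 it was at 129, 177 and 198 CPM against 68.5, 54.3 and 57.1 CPM (1.49 ± 0.28, adjusted p = 0.00074, edgeR). Every MyS3KO library exceeded every Smad3fl library of the same treatment. Tspan5, a further TspanC8 tetraspanin, was higher by 1.56 ± 0.41 and 1.42 ± 0.41 but stayed below 3 CPM. Furin was higher by 0.46 ± 0.15 untreated and 0.56 ± 0.15 under TGF-β1, the former lost without the Smad3fl libraries numbered 3 (0.41, adjusted p = 0.073, edgeR). Under TGF-β1 Pcsk7 and Tspan14 were also higher, by 0.53 ± 0.16 and 0.37 ± 0.13, and Dlg1 was lower by 0.42 ± 0.14. The untreated count of 4 was 2 without untreated Smad3fl library 1 or 2 or untreated MyS3KO library 2, and 1 without untreated MyS3KO library 3. The treated count of 8 was 3 without treated Smad3fl library 1, and 4 without treated Smad3fl library 2 or treated MyS3KO library 1. Timp3, the main inhibitor of ADAM17, was at or below 0.176 CPM in all libraries, and Timp1 at or below 0.583 CPM. In the Smad2 line 0 of 10 were called in either condition (edgeR, DESeq2 and limma), with 0 and 1 at an unadjusted p under 0.05.

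**Figure D4:**
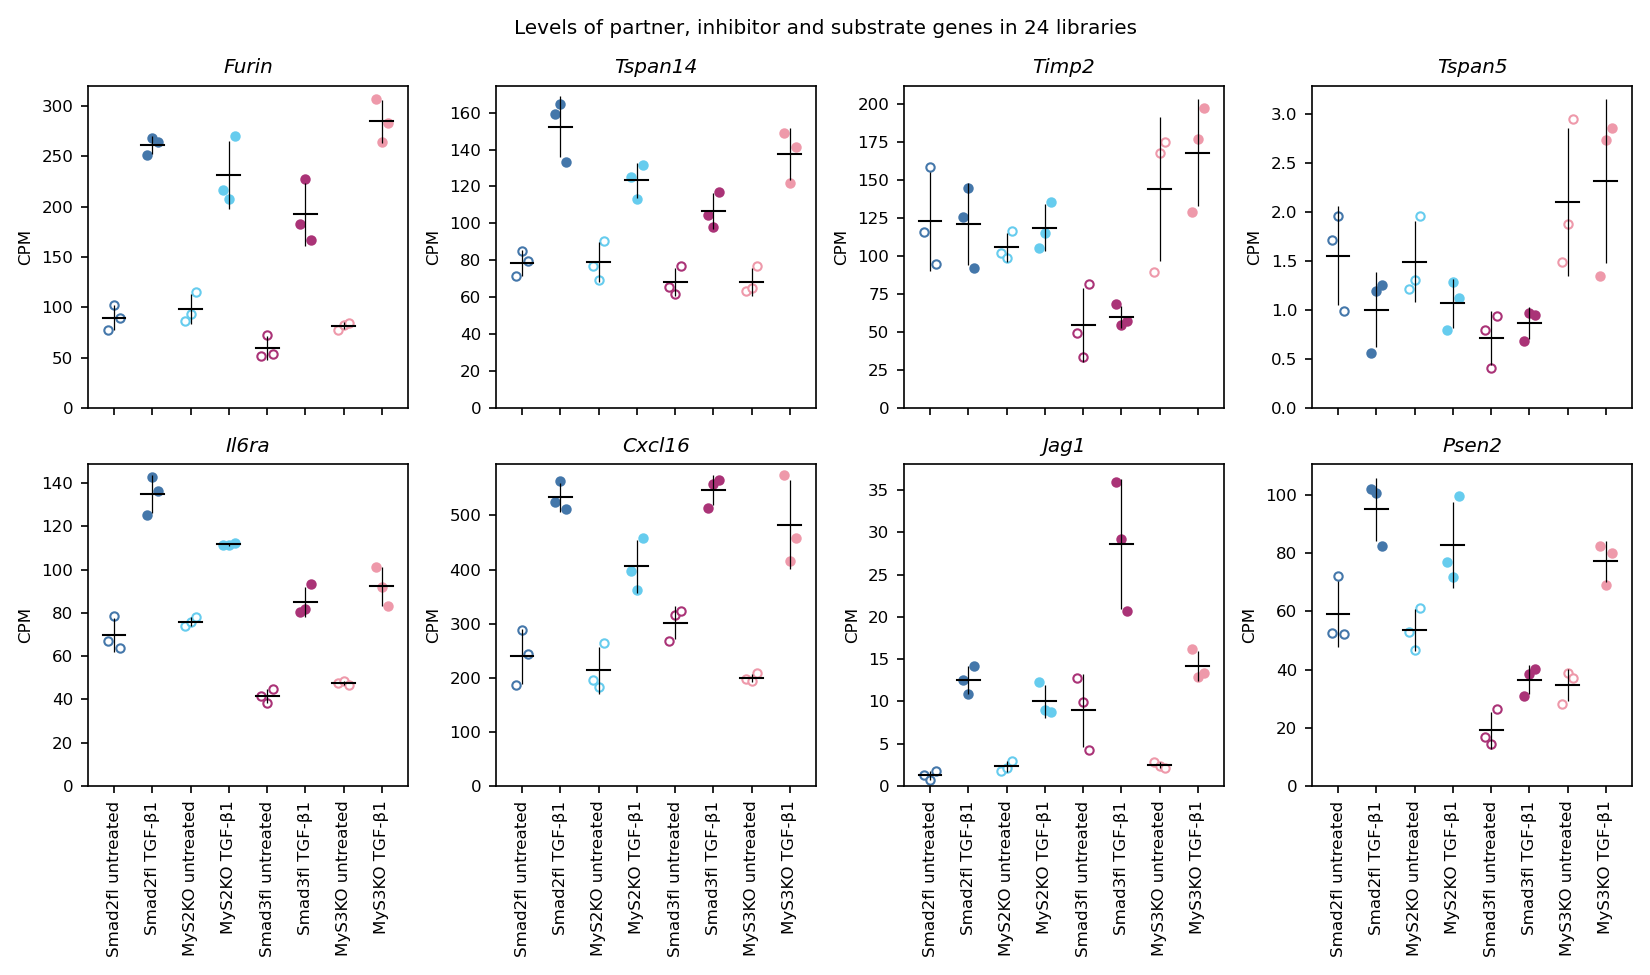
Levels in CPM (vertical axes from 0) of genes for ADAM maturation, metalloprotease inhibition and substrates in every library of the 8 groups. Points are libraries (open, untreated; filled, TGF-β1), horizontal bars are means and vertical bars are SD over 3 libraries. Furin and Tspan14 are higher in every treated library than in any untreated library of the same genotype, and Timp2 is higher in MyS3KO than in Smad3fl.

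Of 29 substrates 24 could be tested. With TGF-β1, 6 rose and 2 fell in Smad2fl, 4 rose and 1 fell in MyS2KO, 4 rose and 2 fell in Smad3fl, and 7 rose and 1 fell in MyS3KO, with list medians of 0.04, 0.10, -0.02 and 0.04. Of all tested genes 11.1, 3.41, 12 and 10% were called in these responses. Under the replicate block the substrate counts were 7 and 1 in MyS2KO and 10 and 6 in Smad3fl. Calls over all genes also went up under the block, from 486 to 1032 and from 1714 to 3306. Jag1, a Notch ligand cut by ADAM proteases, rose in all 4 genotypes, from 1.35, 0.689 and 1.76 to 12.6, 10.9 and 14.2 CPM in Smad2fl (3.29 ± 0.35 log2 units, adjusted p = 4.8e-07, edgeR) and by 2.11, 1.67 and 2.53 in MyS2KO, Smad3fl and MyS3KO. Cxcl16, a membrane chemokine and scavenger receptor shed by ADAM10, rose by 1.15 ± 0.16 in Smad2fl, 0.92 ± 0.16 in MyS2KO, 0.85 ± 0.16 in Smad3fl and 1.27 ± 0.16 in MyS3KO. Il6ra, the interleukin-6 receptor, rose by 0.95, 0.56, 1.03 and 0.95 in the same order, with an SE of 0.11 each. Notch2 fell in all 4 genotypes, by 0.77, 0.65, 0.55 and 0.86. In Smad3fl the Notch2 fall was lost without both libraries numbered 3 (-0.33, adjusted p = 0.18, edgeR). Tnf, the defining substrate of ADAM17, was not called in any of the 4 responses, and its changes ran from -0.28 to 0.23 with an SE of 0.34.

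Between MyS3KO and Smad3fl, 4 substrates were higher and 5 lower untreated, and 3 were higher and 4 lower under TGF-β1, with medians of 0.17 and 0.20. Of all tested genes 17.7% and 28.2% were called in these comparisons, and the treated substrate count lay near that share. Vcam1, an adhesion molecule shed by ADAM17, was at 19.97, 6.41 and 7.49 CPM in untreated MyS3KO and at 126, 133 and 27.7 CPM in untreated Smad3fl (-3.09 ± 0.55, adjusted p = 0.00061, edgeR), with Smad3fl library 3 far below the other two. Jag1 was lower by 1.87 ± 0.33 untreated and by 1.01 ± 0.30 under TGF-β1. Cxcl16 was lower untreated by 0.60 ± 0.16, and Notch2 was higher by 0.46 ± 0.14. The untreated count of 9 was 4 without any 1 of untreated Smad3fl libraries 1 and 2 and untreated MyS3KO libraries 2 and 3, and the treated count of 7 was 4 without treated Smad3fl library 1 or 2. In the Smad2 line 0 of 24 were called by edgeR in either condition, with 4 and 6 at an unadjusted p under 0.05, and DESeq2 called 2 untreated.

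EGF receptor ligands, further classical cargo of ADAM17, were scarce. Of 8 genes 3 could be tested, and together they summed to 1.38 to 4.75 CPM per library. Hbegf was lower in untreated MyS3KO (1.73, 0.691 and 0.842 CPM) than in untreated Smad3fl (3.67, 2.66 and 2.40 CPM), by 1.44 ± 0.36 on the log2 scale (adjusted p = 0.0090, edgeR), a call lost without untreated Smad3fl library 1 or untreated MyS3KO library 2 or 3. Hbegf was the 1 of 3 tested ligands called there, against 17.7% of all tested genes. No ligand was called in a TGF-β1 response (edgeR, DESeq2 and limma 0 of 3 in each, with 2, 0, 1 and 1 at an unadjusted p under 0.05 in Smad2fl, MyS2KO, Smad3fl and MyS3KO). A further list of γ-secretase subunits, rhomboid-related genes and other membrane proteases gave 15 testable genes of 18. Psen2, a catalytic subunit of γ-secretase, rose by 0.69 ± 0.20 in Smad2fl, 0.93 ± 0.20 in Smad3fl and 1.15 ± 0.20 in MyS3KO, and was 0.63 ± 0.20 higher in treated MyS2KO without passing the test (adjusted p = 0.095, edgeR). It was higher in MyS3KO than in Smad3fl by 0.85 ± 0.20 untreated and 1.08 ± 0.20 under TGF-β1. In Smad2fl 1 gene of the list rose and 2 fell, Psenen by 0.48 and Parl by 0.49. In Smad3fl 1 rose and 1 fell (Aph1b by 0.69, lost without the libraries numbered 3, at -0.39 with an adjusted p of 0.49, edgeR), or 3 and 2 under the replicate block, in MyS3KO 3 rose, and in MyS2KO 0 were called (3 at an unadjusted p under 0.05, DESeq2 and limma 0, and 1 under the block). Of all tested genes 11.1, 3.41, 12 and 10% were called in the responses of Smad2fl, MyS2KO, Smad3fl and MyS3KO. Under the block, calls over all genes went from 1714 to 3306 in Smad3fl and from 486 to 1032 in MyS2KO. The counts of this list were not stable when each library was left out in turn. They ran from 1 to 4 in Smad2fl, 0 to 1 in MyS2KO, 1 to 3 in Smad3fl and 1 to 3 in MyS3KO (edgeR). In MyS3KO limma called 2. Rhbdd3 and Parl were lower in untreated MyS3KO by 0.73 and 0.50. Between MyS3KO and Smad3fl 1 of the 15 genes was higher and 3 were lower untreated, where 17.7% of all tested genes were called. Under TGF-β1 3 were higher and 0 lower, against 28.2%, so the treated count lay below that share and the untreated one above its own. Leaving out each library in turn gave 2 to 5 calls untreated and 2 to 4 treated (edgeR).

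Of 21 other ADAM genes 20 had a mean under 1 CPM, 6 had no read and 6 could be tested. The exception was Adam33, at 12.1 to 36.1 CPM, which rose with TGF-β1 in Smad2fl from 15.1, 12.1 and 18.7 to 30.8, 26.0 and 27.5 CPM (0.87 ± 0.28 log2 units, adjusted p = 0.047, edgeR). That call was lost without 18 of the 24 libraries in turn. Adam32 was lower in treated MyS3KO than in treated Smad3fl by 2.82 ± 0.60, at 0.0613 to 0.149 against 0.727 to 1.01 CPM. That is 1, 3 and 3 reads against 18, 23 and 13 reads per library. Adam33 and Adam32 were each the 1 gene of 6 called in their comparison. Of all tested genes 11.1% were called in the Smad2fl response and 28.2% between treated MyS3KO and Smad3fl, so the count with Adam32 lay below that share.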

How the data were processed

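RNA-seq read counts and FPKM values of 24 libraries in 8 groups of 3 were used as the authors deposited them. The deposited counts are whole numbers of reads per gene with no normalization, and the deposited FPKM values are scaled by gene length and library depth by the authors. The submitters' processing notes name TopHat2 2.0.9, HTSeq 0.6.1 and Cufflinks 2.1.1 with mouse builds mm10 and GRCm38.p6, and whether counting used strand is not given in the sources used here. The members and gene lists were chosen with earlier results of these data known.

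Groups were taken from the sample labels. Genes were filtered with filterByExpr (minimum count 10), which kept 14261 of 54532, scaled by TMM and fitted with edgeR 4.0.16 (R 4.3.3) as 8 group means over all 24 libraries. The fit used the quasi-likelihood test with Benjamini-Hochberg adjustment over all tested genes in each of 12 comparisons. CPM values use TMM-scaled totals. Depth was 16868501 to 24918582 counts per library, which limits the precision of genes with few reads. The script was tested on simulated counts. FPKM values served for levels between genes and, as log2(FPKM + 0.1), for limma 3.58.1.

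Alternatives were DESeq2 1.42.0 (test or size factors), no filter, each line alone, a replicate block, each library left out in turn, both Smad3fl libraries numbered 3 left out and a GC offset (loess span 0.5). Same-numbered treated and untreated libraries deviated together in all 3 pairs of MyS2KO (r over genes 0.15 to 0.41) and of Smad3fl (0.33 to 0.45), so these were taken as paired. The 3 pairs of Smad2fl were positive as well (0.0465 to 0.159), and each lay above every Smad2fl pair with unlike numbers (at most 0.0384). They were not taken as paired, so Smad2fl results are given unpaired, although a pairing there remains possible. With the replicate block 3237 genes were called in Smad2fl in place of 1584, and more members were called too, as counted below. In MyS2KO untreated library 2 with treated library 1 gave 0.197, above the 0.154 of the pair numbered 1. Beside the members, the text names from each of 5 pathway lists up to 4 genes with the largest called TGF-β1 change and up to 2 with the largest called knockout difference, the 2 genes whose log2 CPM (prior count 2) correlated best with each member, and checks of labels and treatment. Tnf, Timp1, Timp3 and the markers fall outside that rule and were named after their values were seen. Some items that the rule or the marker lists would name are not reported here.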

Additional observations from a re-analysis of the deposited data

How the results depend on the processing

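The 14 called member values kept their sign in all 461 alternatives run, and 99 of these ended the call. Of the 82 uncalled values 33 changed sign under some alternative and 18 passed the threshold under some. In the interaction of either line and the difference between the floxed responses, 0 members were called under every alternative run. Causes were not tested. The members called in the responses of Smad2fl, MyS2KO, Smad3fl and MyS3KO were 2, 0, 3 and 1. With DESeq2 size factors Smad2fl had 1 and MyS3KO 0, and with the DESeq2 test MyS3KO had 2. With no filter MyS2KO had 1 and MyS3KO 2, and with each line fitted alone Smad2fl had 1 and MyS3KO 0. Without the Smad3fl libraries numbered 3, Smad2fl had 1 and Smad3fl 1. With the replicate block they had 4, 1, 5 and 2, and with the GC offset and replicate block together 5, 2, 5 and 3. In the Smad2 line 1 member was called untreated with no filter, and 1 under TGF-β1 with no filter, with DESeq2 or with the line alone. MyS3KO against Smad3fl under TGF-β1 had 2 with the replicate block in place of 4. The untreated floxed lines differed in 2 members with limma or without the Smad3fl libraries numbered 3. Leaving out each library in turn gave 0 to 3 in Smad2fl, 0 to 0 in MyS2KO, 1 to 3 in Smad3fl and 0 to 1 in MyS3KO. It gave 0 to 1 for MyS2KO under TGF-β1, 2 to 4 and 1 to 5 for MyS3KO untreated and treated, and 0 to 3 between the floxed lines.

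Counts over all genes moved by over 1.5 times under several settings. The replicate block gave 3237 against 1584 in Smad2fl, 1032 against 486 in MyS2KO, 3306 against 1714 in Smad3fl, 2749 against 1428 in MyS3KO, 1599 against 2531 for untreated MyS3KO, and 3 and 0 against 10 and 60 for MyS2KO untreated and treated. With the GC offset as well, the responses had 4204, 1569, 4042 and 3163, and MyS2KO 5 and 26. MyS2KO had 92 and 218 with DESeq2, 32 and 134 with the GC offset, 161 and 313 with no filter, and 21 and 142 with the line alone, where untreated MyS3KO had 1526. Without the Smad3fl libraries numbered 3 the Smad3fl response had 978 and untreated MyS2KO 24. The interactions had 0 to 161 and the response difference 0 to 49. Same-numbered libraries of knockout and floxed cells did not pair (r -0.34 to 0.14). Same-numbered treated and untreated libraries gave r of 0.0465, 0.135 and 0.159 in Smad2fl and 0.414, 0.0439 and 0.287 in MyS3KO. These were positive in all 3 pairs of each but were not taken as paired. In MyS3KO untreated library 2 with treated library 3 gave 0.285. In Smad2fl no pair with unlike numbers exceeded 0.0384, so a pairing remains possible there. Depth limits Rhbdf1 most. Losses of a member's call not named with its result were Adam17 in Smad2fl (adjusted p 0.057 with DESeq2 size factors, 0.069 with the line alone, 0.058 without the Smad3fl libraries numbered 3, edgeR), Adam10 in Smad2fl (0.059, line alone) and Adam8 in MyS3KO (0.054, DESeq2 size factors, and 0.094, line alone). For MyS3KO against Smad3fl under TGF-β1 the replicate block ended the calls of Adam15 (0.063) and Adam17 (0.073), and with the GC offset as well they were at 0.080 and 0.18.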
